A study of Mus musculus with 3 samples.

Results

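Rab proteins are small GTPases that mark the membranes of the cell. Exchange factors load a Rab with GTP on its membrane, the loaded Rab recruits effectors that move, tether or fuse vesicles, and GTPase-activating proteins end the cycle before the Rab is returned to the cytosol. In macrophages, Rab proteins are known for guiding endosomes and phagosomes towards the lysosome and for carrying cytokines and receptors to the cell surface. The family was taken as every gene whose symbol is Rab followed by a number, with at most 1 letter and 1 further digit, and that has at least 1 protein_coding transcript in the annotation used by the authors. These were 59 genes, of 55450 annotated genes present in both deposited kinds of table and of 21951 protein-coding genes. From textbook knowledge, 7 were placed in a phagosomal class, 19 in an endosomal class, 13 in a secretory class, 11 in an ER and Golgi class, and 9 with a less settled role in a class called other.

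RNA bound to chromatin was sequenced, after removal of ribosomal RNA, from macrophages grown in culture from C57BL/6J mouse bone marrow. The cells had been treated for 12 h with 100 ng/ml Lipid A, the membrane anchor of bacterial lipopolysaccharide and a ligand of Toll-like receptor 4, kept without it for 12 h after washing, and treated again with the same dose for 120 min. The study provides 3 biological replicates of this 1 condition, made from 1 µg, 250 ng and 500 ng of RNA, and the labels do not say whether they came from different animals, so each SD given is a spread between samples that may be technical in origin. Untreated cells and cells that met Lipid A a single time were not analysed here, so the values are levels and do not measure any response.

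Gene totals were 10101549, 17750486 and 17457510 expected counts in replicates 1, 2 and 3. Replicate 1 was the library least like the rest. Across 9236 expressed protein-coding genes, Pearson correlations of log2(TPM + 0.1) were 0.948 for replicates 1 and 2, 0.946 for replicates 1 and 3, and 0.978 for replicates 2 and 3. Over the 37 expressed Rab genes the same values were 0.917, 0.907 and 0.965. Such correlations run across genes, and genes are not independent of one another. All 8 macrophage markers examined were expressed and their TPM summed to 1194, 1259 and 832, with Adgre1, the gene of the F4/80 antigen, highest at 708 TPM on average. Of 23 markers of other cell types, 3 were expressed and 6 had 0 counts in every library. The 3 were Cd4, Pf4 and Mitf, and Mitf, a melanocyte regulator that macrophages also use, held most of the sum of 99.5, 104 and 89.1 TPM over all 23.

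Most of the Rab family was present on chromatin. With expression defined as a TPM of at least 1 (TPM is an abundance corrected for transcript length and library size) in all 3 libraries, 37 of the 59 genes (62.7%) were expressed, against 42.1% of all protein-coding genes. A further step up, 20 Rab genes (33.9%) lay in every library above the median of expressed protein-coding genes, against 18.5% of protein-coding genes. At the other end 3 Rab genes (5.08%), namely Rab17, Rab9b and Rab3c, had 0 expected counts in all 3 libraries, against 32.6% of protein-coding genes. Leaving out replicate 1 also gave 37 expressed genes. Together the family took 0.169%, 0.154% and 0.143% of expected counts in replicates 1, 2 and 3, and its TPM summed to 824 ± 77.1 (SD, n = 3). In bulk RNA of this kind, fewer cells that carry a transcript and less RNA per cell cannot be told apart.

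Set against the genes of the same libraries, the expressed Rab genes had a median log2(TPM + 0.1) of 4.03 ± 0.24, and the expressed protein-coding genes had 3.58 ± 0.24 (SD, n = 3 each). The difference within libraries was 0.45 ± 0.10 log2 units. When all 59 Rab genes were kept, and expressed protein-coding genes stayed the comparison, the difference was -1.33 ± 0.05, so its sign depends on whether unexpressed members are counted.

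**Figure D1:**
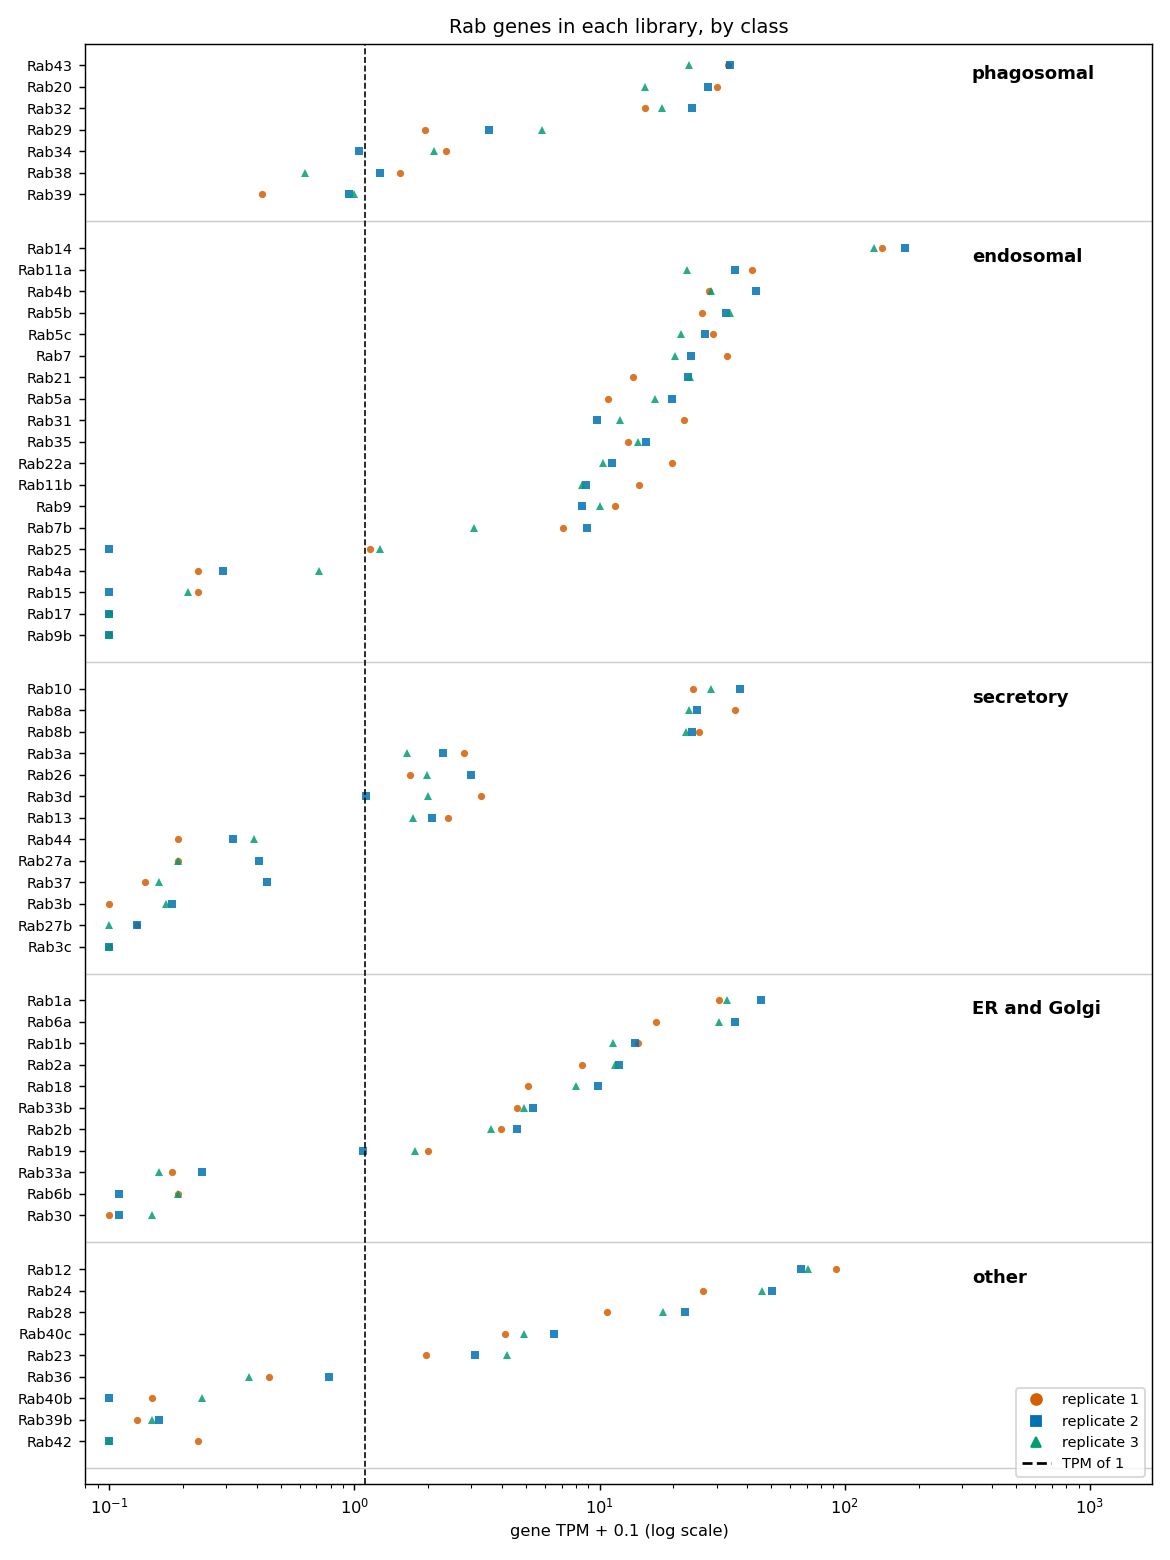
Abundance of each of the 59 Rab genes in each library, on a log axis of TPM + 0.1, by class. Each marker is 1 library (circle, square and triangle for replicates 1, 2 and 3), and the dashed line stands at a TPM of 1. Rab14 lies highest, between 132 and 176 TPM, and most genes of regulated secretion lie left of the line.

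Phagosomal members divided into a well-expressed trio and a weak remainder. Rab43, linked to antigen cross-presentation and Golgi traffic, had 33.2, 34.0 and 23.1 TPM in replicates 1, 2 and 3. Rab20, which takes part in phagosome maturation, had 30.04, 27.6 and 15.3 TPM. Rab32, a Rab of lysosome-related organelles that acts in defence against intracellular Salmonella, had 15.2, 23.8 and 17.9 TPM. All 3 lay above the median of expressed protein-coding genes in each library, and their ranges overlapped. Rab29, a Golgi and lysosome Rab that recruits the kinase Lrrk2, followed at 1.84, 3.44 and 5.75 TPM from 17, 47 and 74 counts, and replicate 3 was its highest library. Rab34, which positions lysosomes, reached 2.26, 0.94 and 2.01 TPM and so missed the threshold in replicate 2. Rab38, the melanosomal relative of Rab32, had 1.44, 1.17 and 0.53 TPM, and Rab39 had 0.32, 0.85 and 0.90 TPM. None of these last 3 rested on more than 42 counts in any library.

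Endosomal members, 19 of the 59 genes, made up 49.1% ± 1.66 of the family's summed TPM, and 14 of the 19 were expressed. The class summed to 404.5 ± 43.2 TPM (SD, n = 3), and Rab14 alone gave 149.7 TPM of it on average. On protein_coding transcripts Rab14 averaged 19.9 TPM. All 6 early endosome Rabs were expressed: the fusion regulators Rab5a, Rab5b and Rab5c, together with Rab21, Rab22a and Rab31. Rab5b had 26.1, 32.8 and 33.9 TPM in replicates 1, 2 and 3. For Rab5c the values were 28.99, 27.0 and 21.5 TPM. Rab5a came lower in each library, at 10.7, 19.7 and 16.8 TPM. All 3 paralogs of the Rab5 gene were therefore represented, and the ranges of Rab5b and Rab5c overlapped. The median over these 6 genes was 4.35 ± 0.09 on the log2(TPM + 0.1) scale (SD, n = 3).

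Recycling endosome Rabs were more uneven, with 5 of 9 expressed. Rab14, which shuttles between the Golgi, endosomes and early phagosomes, was the highest Rab gene in the libraries, at 142, 176 and 132 TPM from 2968, 6516 and 5375 counts, a mean of 149.7 ± 23.0 TPM (SD, n = 3). It alone accounted for 17.4%, 23.8% and 21.5% of the family's counts. The deposited intervals around its TPM were 123 to 148, 157 to 173 and 118 to 132, and the value of replicate 2 lay just above its own interval. The interval of replicate 2 did not overlap those of the other libraries. Rab11a, the main Rab of the slow recycling route, had 41.9, 35.6 and 22.6 TPM. Its relative Rab4b, of the fast route, had 27.9, 43.5 and 28.5 TPM. The members of this station that were not expressed were Rab25 and Rab17, best known from epithelia, Rab15, best known from neurons, and Rab4a. Rab4a had 0.13, 0.19 and 0.62 TPM from 2, 3 and 9 counts, in contrast to its paralog Rab4b. For Rab17, which had 0 counts, 3 counts per library would equal 0.254, 0.224 and 0.202 TPM in replicates 1, 2 and 3. The deposited intervals of Rab17 reached higher, from 0.106 to 1.04, 0.097 to 1.00 and 0.089 to 0.90 TPM, and so left out its own 0 TPM. The limits from 3 counts cover counting error only. The level of the intervals is not given in the sources used here, and neither measures the spread between samples.

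On the way to the lysosome, Rab7, the late endosome Rab needed for fusion with lysosomes, had 33.0, 23.6 and 20.1 TPM. Rab9, which returns receptors to the Golgi, had 11.5, 8.42 and 9.97 TPM. Rab7b, a Rab7 relative of late endosomes and the Golgi, was the lowest expressed endosomal member at 6.97, 8.77 and 2.98 TPM, with replicate 3 lower than both other libraries. The 3 followed one another in that order in replicates 1 and 3, and Rab7b was slightly above Rab9 in replicate 2.

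Secretory members split by the kind of secretion. All 4 Rabs of constitutive exocytosis were expressed and summed to 83.5 ± 6.98 TPM, whereas 3 of the 9 Rabs of regulated secretion were expressed and the 9 together summed to 6.86 ± 0.95 TPM (SD, n = 3). Rab10, which delivers receptors and transporters to the plasma membrane, had 23.9, 37.3 and 28.3 TPM. Rab8a, of post-Golgi transport, had 35.5, 24.95 and 23.0 TPM, but averaged 5.49 TPM on protein_coding transcripts. Its paralog Rab8b had 25.3, 23.7 and 22.5 TPM. These 3 genes overlapped in range with each other, and the other constitutive gene, Rab13, a Rab of cell junctions, was lowest of the expressed secretory members at 2.31, 1.97 and 1.63 TPM.

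Among the Rabs of regulated secretion, Rab3a, the synaptic vesicle Rab, had 2.69, 2.19 and 1.54 TPM from 24, 28 and 22 counts. Rab3d, of secretory granules, had 3.17, 1.02 and 1.89 TPM, and Rab26 had 1.58, 2.89 and 1.88 TPM. Those 3 were the expressed ones, and no count of theirs exceeded 87. Rab27a, which carries lysosome-related granules to the cell surface, had 0.09, 0.31 and 0.09 TPM from 3, 6 and 4 counts. Its paralog Rab27b had 0.03, 0.03 and 0 TPM from 1, 1 and 0 counts. Rab3b, Rab37 and Rab44 stayed at or below 0.34 TPM in every library, and Rab3c had no count.

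The remaining members serve the early secretory pathway or have less settled roles. In the ER and Golgi class 7 of 11 genes were expressed. Rab1a, which carries cargo out of the ER, had 30.5, 45.3 and 32.9 TPM. Rab6a, of transport back through the Golgi, had 16.96, 35.5 and 30.6 TPM, and replicate 1 was the lowest library for both genes. Rab1b followed with 14.2, 13.9 and 11.2 TPM. Rab2a, of Golgi-to-ER transport, had 8.35, 11.9 and 11.5 TPM, and its paralog Rab2b was the lowest expressed member of the class at 3.86, 4.50 and 3.52 TPM. Rab30, Rab33a and Rab6b stayed at or below 0.14 TPM.

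In the class called other, 5 of 9 genes were expressed. Rab12, which directs transferrin receptor to degradation and is a substrate of Lrrk2, was second in the whole family at 92.0, 66.3 and 71.0 TPM. Rab24, linked to autophagy, came after it at 26.3, 50.5 and 46.0 TPM. Rab28 had 10.7, 22.2 and 18.1 TPM. Both Rab24 and Rab28 were lowest in replicate 1, while Rab12 was highest there. Rab40c had 4.03, 6.43 and 4.81 TPM, and Rab23, an inhibitor of Hedgehog signalling, was the lowest expressed at 1.86, 3.00 and 4.10 TPM.

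The order of the 37 expressed genes by mean TPM was firm only at its top. Among its 36 neighbouring pairs, 2 had ranges that did not overlap, Rab14 above Rab12 and Rab12 above Rab24, and in 3 the first gene was higher in all 3 libraries. From Rab24 downwards, each gene overlapped in range with the next one. The first pair did not hold in the read-based table described below, where Rab14 had 138, 163 and 125 TPM and Rab12 had 145, 122 and 131 TPM. On protein_coding transcripts alone Rab14 ranked 11 and Rab12 ranked 4.

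The contrast between classes used the median of log2(TPM + 0.1) over all members in each library. Phagosomal members had a median of 1.87 ± 0.66, endosomal members 3.62 ± 0.14, and secretory members 0.54 ± 0.33 (SD, n = 3). A difference within libraries was taken as larger than the spread between replicates if all 3 libraries agreed in sign and the mean exceeded 2 SD. No p-value was computed, since members of a class are not replicates. The largest of the 3 contrasts was that of endosomal minus secretory members, 3.03, 3.33 and 2.88 in replicates 1, 2 and 3, a mean of 3.08 ± 0.23 and an 8.46-fold difference. It remained beyond the spread in expressed members alone (2.91 ± 0.28), on protein_coding transcripts (3.45 ± 0.35) and in the read-based table described below (2.86 ± 0.38). The secretory class was mixed, however. Its 4 Rabs of constitutive exocytosis had a median of 4.58 ± 0.06, above the endosomal median. Its 9 Rabs of regulated secretion had a median of -2.03 ± 0.64. The contrast therefore describes the class as filled here and does not hold for constitutive exocytosis.

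Phagosomal minus endosomal members differed by -2.54, -1.67 and -1.05, a mean of -1.75 ± 0.75, which passed the rule. It also passed on protein_coding transcripts (-1.94 ± 0.86), as CPM (-3.35 ± 0.82), on rescaled TPM (-1.77 ± 0.76) and without replicate 1 (-1.36 ± 0.44). It did not pass in 5 other readings. The difference was 0.05 ± 0.21 in expressed members and 0.21 ± 0.40 when Rab10, Rab14, Rab22a and Rab31, which also act on phagosomes, were moved into the phagosomal class. Read-based values gave -0.64 ± 0.74. Leaving out replicate 2 gave -1.79 ± 1.05, and a mean over members gave -0.29 ± 0.21. Phagosomal minus secretory members differed by 0.49, 1.66 and 1.83, a mean of 1.33 ± 0.73, and fell short of the rule. Without replicate 1 the mean was 1.75 ± 0.12, and in expressed members it was 2.96 ± 0.21, both beyond 2 SD. The trio of Rab43, Rab20 and Rab32 thus lay at the level of the expressed endosomal genes, while the class median was the value of Rab34 in replicate 1 and of Rab29 in replicates 2 and 3.

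**Figure D2:**
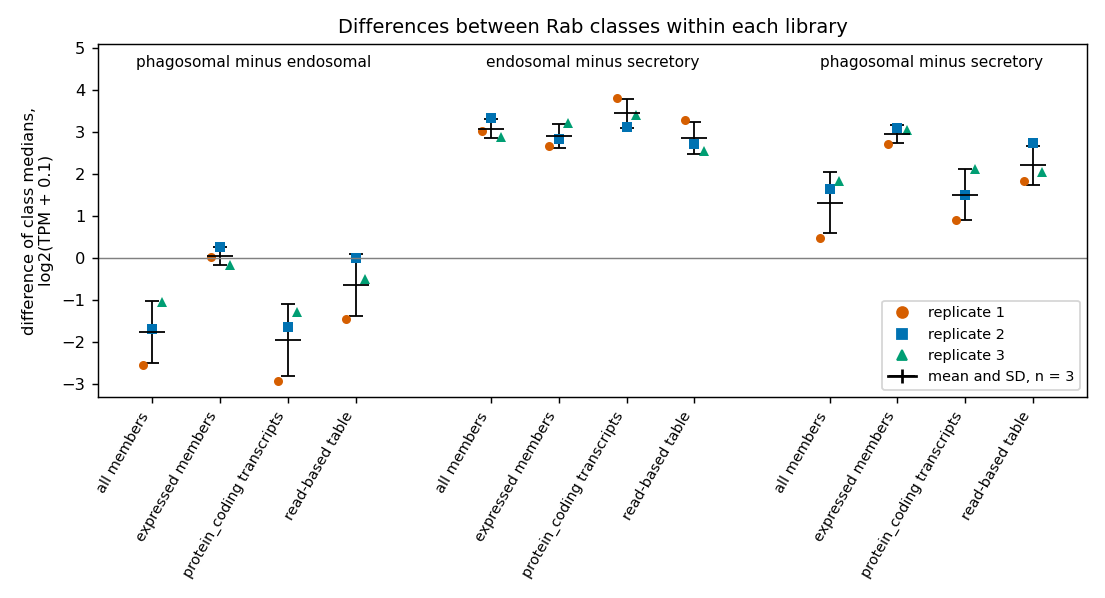
Differences between class medians of log2(TPM + 0.1) within each library, for 3 pairs of classes and 4 ways of counting. Markers are libraries, and the horizontal dash and bar are the mean and SD over 3 libraries. Endosomal minus secretory members lies between 2.55 and 3.82 throughout, whereas phagosomal minus endosomal members lies at 0 within its SD for expressed members.

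Chromatin RNA includes transcripts whose introns have not been removed, and the annotation holds models that retain introns, so each gene's counts were divided by transcript type. The 31 expressed Rab genes with at least 50 counts in every library were used. Retained-intron models held over 50% of the counts in all 3 libraries for 3 of these 31 genes (9.68%), against 16.2% of expressed protein-coding genes with as many counts. Such a model held counts in 11 of the 31 genes, whereas 5273 of the 7880 protein-coding genes have such a model. The median share over these 11 was 46.5% ± 8.91, compared with 30.5% ± 0.12 over the 5273 genes (SD, n = 3 each). Averaged over all genes the order was the other way, with 15.5% ± 0.51 in the 31 Rab genes and 23.7% ± 0.02 in the 7880. Averaged over all 31 genes, protein_coding models held 79.8% ± 1.15 of the counts, and over 7880 protein-coding genes they held 68.5% ± 0.81.

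Rab14 headed this list. Retained-intron models held 88.6%, 88.3% and 88.6% of its counts in replicates 1, 2 and 3, and 90.7% ± 0.91 in the read-based table. Rab14-210, a single unspliced stretch of 5003 bases that starts inside exon 1 and runs into intron 1, had 1128, 2735 and 2276 counts. The spliced protein_coding model Rab14-201, of 8 exons, had 203, 730 and 584. Another single-exon model, Rab14-209, which lies in the introns around exon 4, had 437, 1284 and 1076 counts. Counted on protein_coding models alone, Rab14 had 13.1, 28.2 and 18.4 TPM and ranked 11 in the family, where Rab43 ranked 1 with 30.1 TPM on average. Without its 2 single-exon models alone, Rab14 had 113, 115 and 85.6 TPM, still above Rab12 in each library.

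**Figure D3:**
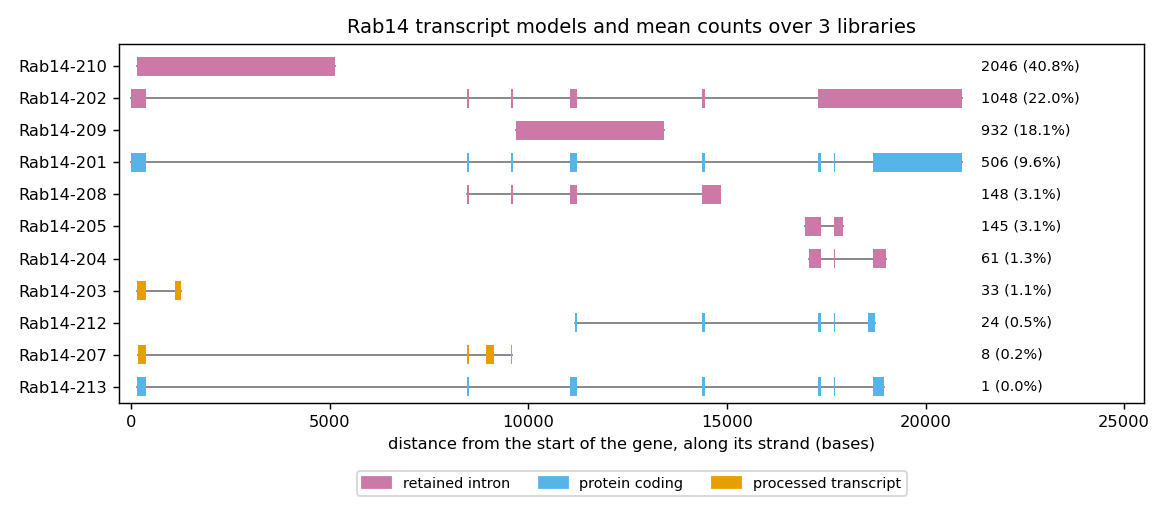
Annotated Rab14 transcript models with a count above 0, drawn along the strand of the gene as distance from its start in bases. Boxes are exons coloured by type, lines are introns, and the numbers are mean counts over 3 libraries with the share of the gene. The 2 single-exon retained-intron models Rab14-210 and Rab14-209 hold 40.8% and 18.1% of the counts.

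Next in retained-intron share was Rab4b, with 76.1%, 74.3% and 80.8%. Rab24 had 59.7%, 61.7% and 62.6%. Rab5a had 48.6%, 59.2% and 58.3%, and its counts were divided between 2 models, the single-exon Rab5a-202 and the spliced Rab5a-201. Rab2b had 36.9%, 55.1% and 58.3%. For Rab5a and Rab2b replicate 1 was the lowest library, below both others. Rab4b on protein_coding models averaged 3.48 TPM, against 33.3 TPM on all models. The phagosomal genes Rab43, Rab20 and Rab32 have no retained-intron model in the tables, so no such share can be given for them. On protein_coding models 34 of the 59 Rab genes (57.6%) reached 1 TPM in every library, against 36.7% of protein-coding genes, and the genes lost from the 37 were Rab23, Rab3a and Rab26.

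**Figure D4:**
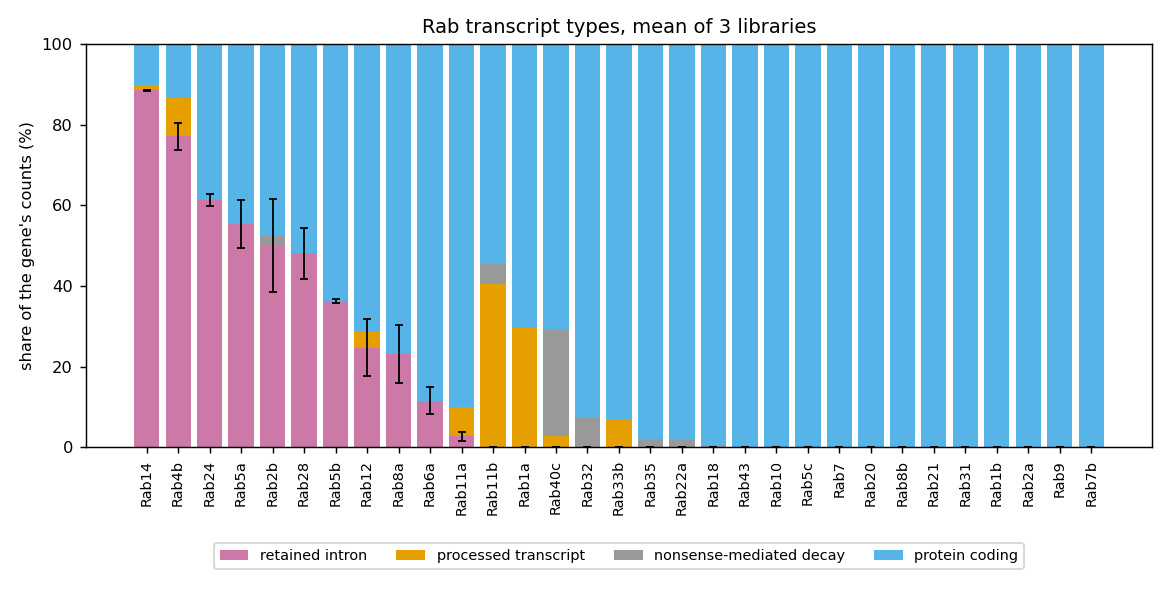
Mean share of counts on each transcript type, in percent, for the 31 expressed Rab genes with at least 50 counts in every library. Error bars are the SD of the retained-intron share over 3 libraries. The share runs from 88.5% in Rab14 to 2.75% in Rab11a among the 11 genes with such a model, and the other 20 genes have no counts on one.

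A spliced choice of known consequence lies in Rab6a, whose transcripts carry either of a pair of mutually exclusive exons and give the proteins known as Rab6A and Rab6A′. The exons are shown so that the bases that tell them apart can be seen. In mm10 both are exon 4 of their transcript on the plus strand, at chr7:100629838-100629943 in Rab6a-201 and at chr7:100629666-100629771 in Rab6a-202. Each is 106 bases long, and 30 aligned positions differ (71.7% identity), which are in capitals.
Rab6a-201 exon 4: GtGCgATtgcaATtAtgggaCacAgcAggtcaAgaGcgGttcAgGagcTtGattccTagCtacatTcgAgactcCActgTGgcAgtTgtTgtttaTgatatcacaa
Rab6a-202 exon 4: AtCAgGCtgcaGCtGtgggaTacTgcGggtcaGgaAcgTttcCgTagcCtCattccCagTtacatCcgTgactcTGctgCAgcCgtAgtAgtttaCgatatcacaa
Rab6a-201 had 335, 428 and 462 counts in replicates 1, 2 and 3. Rab6a-202 had 56.2, 220 and 177. The first model exceeded the second in every library, and its share of the gene's counts was 66.2% ± 11.4 against 22.2% ± 8.19 (SD, n = 3 each). Each model has 8 exons, of which 6 are the same in both, so they also differ outside exon 4. Counts of whole models therefore do not measure the choice of exon 4 alone. In Rab1a, the counts of 2 coding models changed places between libraries: Rab1a-206 had 0.13, 577 and 434 counts and Rab1a-201 had 299, 25.5 and 83.8, so no split between them can be given.

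The promoters of members were read to see what the expressed genes share in sequence. RefSeq promoters (GRCm38.p6, 250 bases before to 50 after the start) matched 48 of the 59 genes. In the 33 expressed members with a promoter the median number of CG dinucleotides was 25, against 11 in the 15 members not expressed and 7 in all 32851 mouse promoters of the table. The ratio of observed to expected CG was over 0.6 in 30 of the 33 expressed members (90.9%), in 6 of the 15 others (40.0%) and in 35.8% of all promoters. All promoters include those of genes not expressed here, and expressed genes outside the family were not read apart. Whether these shares, or the motif shares below, are particular to Rab genes was therefore not tested. Exceptions ran both ways: the promoter of expressed Rab32 held 10 CG, whereas that of Rab6b, a gene at or below 0.09 TPM, held 42. The promoters of Rab14, the highest member, and of Rab17, a member with no counts in either estimate, are shown with every CG in capitals. The first holds 27 and the second 5. The RefSeq promoter nearest to the annotated start of a gene was used, with no limit on distance. That of Rab17 lies inside the gene, whose annotated start is at chr1:90969661.
Rab14 promoter, chr2:35201071-35201370, minus strand: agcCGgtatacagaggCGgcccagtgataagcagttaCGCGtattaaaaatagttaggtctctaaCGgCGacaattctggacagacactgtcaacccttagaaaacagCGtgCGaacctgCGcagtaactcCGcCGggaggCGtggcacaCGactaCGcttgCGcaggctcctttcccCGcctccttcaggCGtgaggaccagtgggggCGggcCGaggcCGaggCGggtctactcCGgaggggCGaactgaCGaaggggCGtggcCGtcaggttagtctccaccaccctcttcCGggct
Rab17 promoter, chr1:90967618-90967917, minus strand: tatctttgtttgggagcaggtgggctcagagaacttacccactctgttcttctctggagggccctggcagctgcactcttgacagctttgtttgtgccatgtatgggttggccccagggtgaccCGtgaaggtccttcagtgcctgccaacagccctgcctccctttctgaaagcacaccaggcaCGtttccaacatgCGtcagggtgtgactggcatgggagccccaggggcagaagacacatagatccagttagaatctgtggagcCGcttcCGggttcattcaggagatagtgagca
Motifs were searched on both strands. GGGCGG, the GC box bound by Sp1, was in 34 of the 48 Rab promoters (70.8%) and in 35.7% of all promoters. GAGGAA, the core bound by the macrophage factor PU.1, was in 8 (16.7%) and in 28.3% of all promoters. TGANTCA, the AP-1 site, was in 2, the core of the interferon response element in 1, TATAAA in 4, and the NF-kB consensus in 2, against 7.81%, 3.44%, 13.6% and 8.46% of all promoters. These are matches of letters and not sites of binding. Among phagosomal genes, the promoters of Rab20 and Rab32 hold the PU.1 core, whereas those of Rab29, Rab34, Rab39 and Rab43 do not. The remaining matches of this core lie in other classes. The promoters of Rab20 and Rab32 are shown as examples of the match. Capitals mark GAGGAA or its complement in each and, in Rab20, also GGGCGG.
Rab20 promoter, chr8:11478591-11478890, minus strand: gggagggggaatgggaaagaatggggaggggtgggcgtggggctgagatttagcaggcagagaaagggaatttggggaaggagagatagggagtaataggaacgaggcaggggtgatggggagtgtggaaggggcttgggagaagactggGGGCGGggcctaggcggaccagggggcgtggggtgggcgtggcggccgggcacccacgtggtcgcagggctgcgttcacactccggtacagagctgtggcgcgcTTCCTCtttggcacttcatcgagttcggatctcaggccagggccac
Rab32 promoter, chr10:10558158-10558457, minus strand: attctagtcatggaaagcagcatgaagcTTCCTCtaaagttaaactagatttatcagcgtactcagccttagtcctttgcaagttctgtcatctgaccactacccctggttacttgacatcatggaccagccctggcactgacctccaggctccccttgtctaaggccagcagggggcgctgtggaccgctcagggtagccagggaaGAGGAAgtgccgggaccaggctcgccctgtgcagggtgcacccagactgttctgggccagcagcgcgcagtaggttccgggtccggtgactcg

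The authors deposited a second estimate of each transcript, made from the reads without the alignment, and it is called read-based here. In the 37 expressed Rab genes the read-based TPM exceeded the alignment-based TPM by a median of 0.48 ± 0.07 log2 units (1.40-fold), and in 9236 expressed protein-coding genes by 0.39, or 1.31-fold. It was over 2 times higher in every library for 4 of the 37 (10.8%), against 9.11% of expressed protein-coding genes. Rab18, of lipid droplets and the ER, had 21.6, 43.7 and 36.7 read-based TPM against 5.01, 9.77 and 7.94 alignment-based. Rab7b had 21.7, 26.7 and 11.5 against 6.97, 8.77 and 2.98. Rab9 had 25.6, 35.1 and 38.5 against 11.5, 8.42 and 9.97. Rab23 was the other of the 4, with 7.32, 10.2 and 9.54 read-based TPM against 1.86, 3.00 and 4.10, and 88.7% of its read-based counts lay on 1 retained-intron model. Rab11a, with 81.3, 111 and 80.1 against 41.9, 35.6 and 22.6, missed the 2-fold mark in replicate 1. The order of the 3 libraries was the same in both estimates for Rab18 and Rab7b, and differed for Rab9, Rab23 and Rab11a.

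Among the 22 Rab genes below the expression threshold, 7 (31.8%) had at least 1 read-based TPM in every library, against 16.9% of protein-coding genes below it. They were Rab34, Rab19, Rab37, Rab3b, Rab27b, Rab3c and Rab9b. Rab34 differed most in amount, with 9.31, 22.1 and 20.2 read-based TPM. Of its read-based counts 53.7% lay on the short retained-intron model Rab34-207, which had 0 alignment-based counts in every library. Rab3c, without any alignment-based count, had 123, 635 and 542 read-based counts on its longest model Rab3c-201, and Rab9b had 179, 248 and 247 on its single model. The presence of these genes therefore rested on how reads were assigned. Rab17 alone among the 3 genes without alignment-based counts was at 0 in both estimates.

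**Figure D5:**
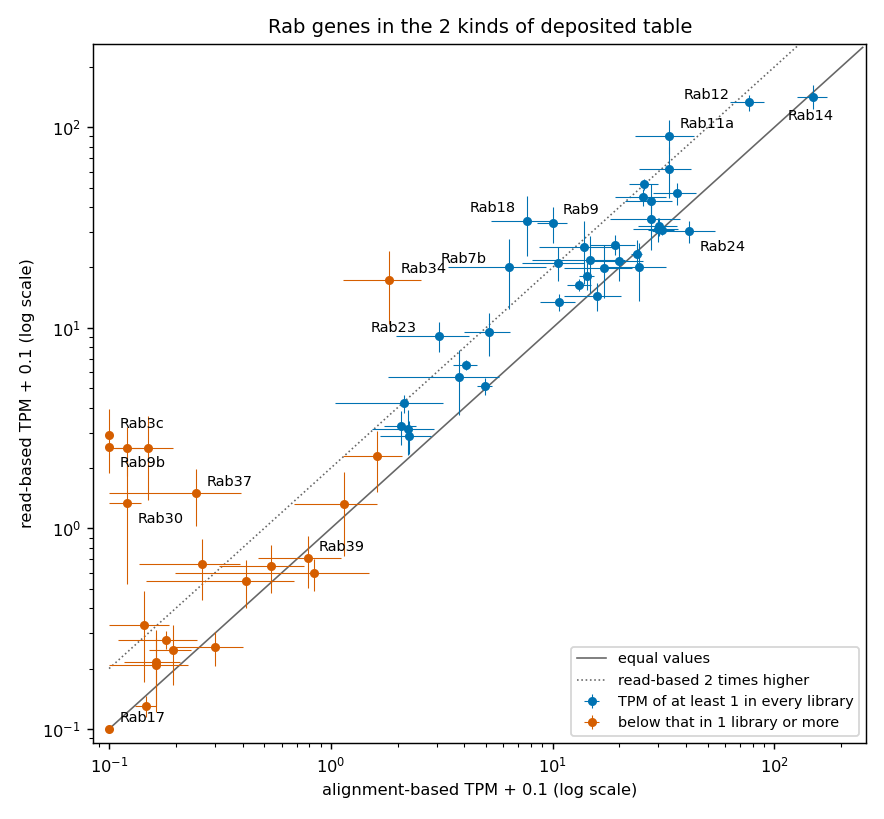
Read-based against alignment-based abundance of the 59 Rab genes, both as mean TPM + 0.1 on log axes, with bars for the SD over 3 libraries. Blue genes reached 1 TPM in every library in the alignment-based table, the solid line marks equal values and the dotted line a read-based value 2 times higher. Rab3c and Rab9b have 0 alignment-based TPM and average above 2 read-based TPM.

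Reads may also be shared with genes at the same place, and whether counting used strand is not given in the sources used here. Of the 59 Rab genes 32 (54.2%) overlap another annotated gene, against 46.6% of protein-coding genes. An expressed gene on the opposite strand, whose reads cannot be told apart without strand, overlaps 11 of the 37 expressed Rab genes (29.7%), against 28.2% of expressed protein-coding genes. Rab37 lies across Cd300lf, an inhibitory receptor gene of myeloid cells, over 17779 bases. Cd300lf had 44.8, 41.0 and 22.3 TPM, whereas Rab37 had 0.04, 0.34 and 0.06 alignment-based and 1.23, 1.94 and 1.04 read-based TPM. Rab24 overlaps Prelid1 over 1447 bases, and Prelid1 had 18.9, 19.9 and 20.3 TPM. Rab43 overlaps the same-strand gene Gm44423, at 27.7, 34.0 and 22.8 TPM, over 3158 bases. It also overlaps same-strand 9930120I10Rik, at 27.6, 42.9 and 23.1 TPM, over 865 bases. The same-strand protein-coding gene Gm45140, at 5.15, 4.80 and 3.25 TPM, overlaps Rab43 over 23304 bases. Rab20 overlaps the same-strand gene Gm20100, at 27.75, 29.8 and 15.8 TPM, over 2272 bases. Rab26, at 1.58, 2.89 and 1.88 TPM, overlaps the same-strand protein-coding gene Traf7 over 698 bases. Traf7 had 125, 117 and 94.9 TPM, far above Rab26 in each library. The part of these neighbours in the Rab values was not tested.

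Differences between replicates were measured as the SD of log2(CPM + 0.5) with TMM factors, in the 41 Rab genes with at least 10 counts in every library. The median SD was 0.27 in these Rab genes and 0.27 in all 13292 genes that pass, and 0.24 in 3377 protein-coding genes of the same CPM range. Replicate 1 was the most deviant library for 20 of the 41 (48.8%), and for 55.7% of all genes. Without it the median SD was 0.13 in the Rab genes and 0.14 in all genes. The most variable was Rab7b (SD 0.70), with 21.6, 20.4 and 8.81 CPM in replicates 1, 2 and 3. Rab20 came next (SD 0.63), with 43.1, 27.8 and 17.8 CPM. Rab29 (SD 0.61) had 1.60, 2.67 and 4.41 CPM. Rab20 was highest and Rab29 lowest in replicate 1, while Rab7b was low in replicate 3 alone. Rab19 (SD 0.58) and Rab39 (SD 0.50) completed the first 5, and no library gave either more than 42 counts.

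The genes that run the Rab cycle were examined from lists. Of 103 such genes, 82 were expressed (79.6%), against 42.1% of all protein-coding genes. In 47 (45.6%) the TPM of each library was over the median of expressed protein-coding genes, against 18.5%. Exchange factors, which activate Rabs, were expressed in 24 of 28 cases. Dennd1a, an activator of Rab35, had 182, 295 and 249.9 TPM. Ric1, of the complex that activates Rab6, had 171, 203 and 154 TPM, and Gapvd1, which acts on Rab5, had 86.8, 147 and 105 TPM. All 3 exceeded the Rab genes they serve in TPM; Rab35 had 13.0, 15.3 and 14.2 TPM. Dennd5b was lowest at 0.04, 0.09 and 0.31 TPM.

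GTPase-activating proteins were expressed in 27 of 31 cases, with Tbc1d13 at 133, 152 and 118 TPM, Tbc1d10b at 104, 121 and 98.1 TPM and Tbc1d1 at 101, 104 and 105 TPM. Tbc1d13 and Tbc1d10b both act on Rab35. The lowest, Tbc1d30, had 0.03, 0.12 and 0.08 TPM. All 7 genes of recycling and prenylation were expressed. Gdi2, which extracts Rabs from membranes, had 46.1, 78.9 and 58.9 TPM. Rabggtb, a subunit of the enzyme that attaches the lipid anchor, had 25.9, 32.8 and 30.4 TPM. Rabif, a chaperone of secretory Rabs, was lowest at 1.29, 3.26 and 2.81 TPM. Both kinases that phosphorylate Rabs were expressed, Lrrk1 at 16.2, 27.7 and 20.2 TPM and Lrrk2 at 2.31, 4.17 and 4.07 TPM.

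Effectors were expressed in 22 of 35 cases. The 3 highest all bind Rab5 on early endosomes: Appl2 had 95.6, 134 and 84.7 TPM, Appl1 had 40.8, 103 and 104 TPM, and Eea1 had 59.3, 90.5 and 74.9 TPM. Of 12 listed effectors of Rab3 or Rab27, a subset drawn after its values were seen, 1 was expressed, against 42.1% of all protein-coding genes. It was Unc13d, needed for release of lytic granules, at 19.3, 22.8 and 16.7 TPM. The other 11 were not expressed, and 7 of them, Sytl2, Sytl4, Sytl5, Mlph, Rims1, Rph3a and Rph3al, had 0 TPM in every library. Of all protein-coding genes 32.6% had 0 counts in every library. Read-based values of those 7 were at most 2.15 TPM on average, in Sytl4. Over all 11 the highest read-based mean was 3.10 TPM, in Exph5, which had at most 0.01 alignment-based TPM in any library. Of the 23 remaining effectors 21 were expressed. Because the subset was drawn from the values, its contrast with the remaining effectors is a description and cannot serve as a test.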

How the data were processed

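For each library the deposited tables hold estimated (expected) counts and TPM per gene and per transcript, with RSEM's columns per the file headers (alignment-based), and estimated counts and TPM per transcript with kallisto's columns (read-based). The build is mm10 with GENCODE M21, per the deposited notes. Not given in the sources used here: versions, settings, strand. The interval bounds deposited beside each gene TPM were treated as scores, since their level is not stated in the headers.

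Of 81881 gene identifiers 55536 matched the annotation, 86 of them on scaffolds that the read-based table lacks. The 26248 numeric identifiers and 97 spike-in rows were left out of totals; phiX held 1.86%, 0.39% and 0.52% of all counts in replicates 1, 2 and 3. Deposited TPM still includes them, and includes abundant short RNAs, so rescaling over genes with an effective length from 200 bases upwards raised the 56 Rab values above 0 (Rab14 to 374 TPM).

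Read-based TPM was summed over transcripts of a gene. Expected counts were rounded for TMM factors (edgeR 4.0.16) and DESeq2 1.42.0 size factors. Thresholds were 1 TPM, a pseudocount of 0.1 TPM, 10 counts for spread, 50 counts for transcript types and a prior of 0.5 CPM. No p-value was computed, since there is 1 condition. Values in every library are given for the 4 highest and the lowest expressed members of each class, for the 5 members of highest SD, of largest ratio between estimates and of highest retained-intron share, and for the 3 highest and the lowest of each list of Rab cycle genes. Where several genes tie at 0, as among effectors, no single one was picked. One gene of the recycling and prenylation list is not reported here. Members, classes and lists were chosen with earlier results of these data known. Observed to expected CG is the CG number times the length, over the product of C and G. The code was checked on simulated data. Processing used Python 3.11.15 and R 4.3.3.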

Additional observations from a re-analysis of the deposited data

How the results depend on the processing

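The count of expressed Rab genes ranged from 27 at a threshold of 5 TPM to 44 in the read-based table, and that of Rab cycle genes from 65 to 88; none moved by more than 1.5 times. Endosomal medians (log2) were 4.34 for expressed members, 2.56 as a mean over members, 4.42 read-based, 4.94 rescaled over longer genes, 4.82 as CPM and 3.39 on protein_coding transcripts, an alternative chosen after seeing the data. Phagosomal medians were 4.39 for expressed members, 3.78 read-based, 3.17 rescaled and 3.80 in the wide class that takes in Rab10, Rab14, Rab22a and Rab31. Secretory medians were 1.24 with a pseudocount of 1, 1.43 for expressed members, 1.57 read-based, 1.80 rescaled, -0.066 on protein_coding transcripts and -0.55 under the wide class.

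Phagosomal minus endosomal reversed to 0.053 for expressed members and to 0.21 in the wide class, and was -0.29 as a mean over members, -0.64 read-based and -3.35 as CPM. Endosomal minus secretory was 2.48 with a pseudocount of 1, 2.32 as a mean, 4.12 as CPM, 3.45 on protein_coding transcripts and 4.14 in the wide class. Phagosomal minus secretory was 2.96 for expressed members, 2.22 read-based and 4.35 in the wide class. All Rab genes minus expressed coding genes reversed to 0.45 for expressed members, and was -1.18 with a pseudocount of 1, -2.08 as a mean, -0.86 read-based, -1.04 as CPM and -0.83 on protein_coding transcripts. CPM is not divided by length; the cause of the other moves was not tested. Leaving out 1 replicate gave a median SD between 0.13 and 0.28, the lowest without replicate 1. The median retained-intron share was 28.6% with genes of at least 10 counts, as genes were added.

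Single Rab means moved by more than their SD for 38 genes read-based, 18 on protein_coding transcripts and 56 after rescaling. With a replicate left out, 0 of 177 values did so. With 3 libraries such a mean cannot move by more than its SD, so this count says nothing about robustness. No paired analysis was possible because there is 1 group.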

Other observations

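Antisense and pseudogene relatives of the family were also present in the tables. Rab10os, annotated antisense to Rab10, had 20.99, 20.4 and 15.2 TPM in replicates 1, 2 and 3, below Rab10 in each library. Rab26os, antisense to Rab26, had 5.28, 8.02 and 19.8 TPM, from 14, 14 and 33 counts, and was above Rab26 in each library. The read-based table gave Rab26os 3.77, 4.67 and 9.81 TPM. Of the 4 Rab pseudogenes named as such, Rab5a-ps and Rab9b-ps1 were at 0 in both estimates, and Rab7-ps1 and Rab11b-ps2 stayed below 0.9 TPM. At the Rab20 start a noncoding gene on the opposite strand, E230013L22Rik, had 11.2, 17.5 and 10.1 TPM, and its highest library was replicate 2 where that of Rab20 was replicate 1.

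The files limit these values in several ways. The Rab genes that were not expressed rest on few counts, with 16 of the 59 under 10 counts in every library. With 1 condition and 3 libraries, levels can be ranked only coarsely. Paralogs and near-identical transcripts can exchange reads.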
